A study of Mus musculus with 2 samples.

Results

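The cells described here are macrophages of the newborn mouse tooth germ that carry transcripts of the complement C1q genes and little or no Gpnmb. They were chosen by measured counts of unique molecular identifiers (UMIs), each of which stands for a captured transcript. A barcode, the tag of a microwell and taken as a cell, passed if it held no fewer than 500 genes and no more than 20% of its UMIs were mitochondrial. Members then had at least 20 UMIs of C1qa, C1qb and C1qc together per 10000 and at least 2 UMIs of Csf1r, Mrc1, Adgre1 and Ms4a7 together. They also had fewer than 20 UMIs of Acp5 and Ctsk together and fewer than 10 UMIs of Gpnmb per 10000. The rule found 938 members, 482 of them control and 456 deletion barcodes, among 28918 passing and 30019 deposited barcodes.

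The study profiled dissociated mandibular first molar germs of newborn C57black/B6 mice with the BD Rhapsody microwell system. Both groups carry Edarfl/fl, in which loxP sites flank the gene of the ectodysplasin receptor. The control has no Cre, and the deletion group, K14cre;Edarfl/fl, adds a Cre driven by the keratin 14 promoter, which is active in epithelium. Each group was 1 library, so differences have no replicate check, no p-value was computed, and genotype, animal, mix of sexes and dissociation cannot be told apart. How many germs entered each library, and of which sex, is not given in the sources used here.

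Macrophages are phagocytes that most tissues hold from before birth. They depend on the receptor encoded by Csf1r, clear dead cells and debris through scavenger receptors, digest them in lysosomes and recycle the iron of engulfed haem. C1q, built from the products of C1qa, C1qb and C1qc, starts the classical complement pathway and also tags dead cells for uptake. Mrc1 encodes the mannose receptor, an endocytic lectin, and Pf4 the chemokine CXCL4, which is best known from platelets and is also made by many tissue macrophages. Gpnmb, a lysosome-associated glycoprotein, is high in macrophages loaded with lipid or debris, and Acp5 and Ctsk are enzymes of osteoclasts, the bone-resorbing relatives of macrophages.

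Promoter windows of 4 genes are shown here. In the mm10 build, C1qb lies on chromosome 4 from 136880129 to 136886187 and C1qc from 136889804 to 136893065, both on the minus strand, with transcription starts 6714 bases apart in the RefSeq table. Pf4 lies on chromosome 5 from 90772435 to 90773383 on the plus strand. Ppbp, the gene of another platelet chemokine, lies next to it from 90768518 to 90770063, with starts 3917 bases apart. C1qb and C1qc are shown because the rule rests on them, and Pf4 and Ppbp because these neighbours differed in how alike they were between the libraries. Each window runs from 250 bases before to 50 bases after the start in RefSeq's GRCm38.p6 table, written 5′ to 3′ on the gene's strand. Capitals mark GAGGAA, a purine box of the PU.1 type, or AGATAA, a box of the GATA type, searched on both strands, so that TTCCTC and TTATCT count too. The first was present in 28.3% and the second in 11.2% of 32851 promoter windows of the same length. C1qa is not shown.
C1qb (chr4:136886151-136886450, minus strand): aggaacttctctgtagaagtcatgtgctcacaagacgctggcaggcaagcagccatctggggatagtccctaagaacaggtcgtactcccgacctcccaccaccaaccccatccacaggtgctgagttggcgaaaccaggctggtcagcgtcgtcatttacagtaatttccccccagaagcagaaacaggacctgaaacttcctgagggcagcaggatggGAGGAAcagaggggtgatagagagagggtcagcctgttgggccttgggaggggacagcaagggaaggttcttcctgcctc
C1qc (chr4:136892865-136893164, minus strand): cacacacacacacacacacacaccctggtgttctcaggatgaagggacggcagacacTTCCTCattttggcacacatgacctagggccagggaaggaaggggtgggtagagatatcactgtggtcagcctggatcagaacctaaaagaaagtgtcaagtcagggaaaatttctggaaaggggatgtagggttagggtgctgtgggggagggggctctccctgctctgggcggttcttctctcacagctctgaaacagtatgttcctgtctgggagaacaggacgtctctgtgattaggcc
Pf4 (chr5:90772185-90772484, plus strand): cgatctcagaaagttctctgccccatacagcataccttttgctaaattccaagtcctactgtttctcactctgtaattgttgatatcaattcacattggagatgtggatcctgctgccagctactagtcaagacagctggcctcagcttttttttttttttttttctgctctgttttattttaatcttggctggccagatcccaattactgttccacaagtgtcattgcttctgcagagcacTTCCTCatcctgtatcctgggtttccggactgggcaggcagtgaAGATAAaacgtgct
Ppbp (chr5:90768268-90768567, plus strand): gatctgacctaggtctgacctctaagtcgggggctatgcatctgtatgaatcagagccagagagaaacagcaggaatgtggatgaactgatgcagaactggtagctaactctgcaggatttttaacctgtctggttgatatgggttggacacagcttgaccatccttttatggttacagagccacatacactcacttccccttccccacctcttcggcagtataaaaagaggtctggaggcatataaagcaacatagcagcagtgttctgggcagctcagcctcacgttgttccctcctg
The windows of C1qb, C1qc and Pf4 each held 1 purine box, that of Pf4 also held 1 GATA-type box, and that of Ppbp held neither. The marked letters do not overlap in these windows and are a description, not evidence of binding.

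The control library held 73375441 UMIs in 13990 barcodes and the deletion library 62158879 in 16029. Passing barcodes had medians of 4468 and 3351 UMIs, in that order, which is kept below wherever a pair of values is given. Members were deeper, with medians of 8645 and 6182 UMIs, in which 2945.5 and 2394.5 genes were detected, and ranged from 755 to 28756 and from 738 to 15041 UMIs. The libraries shared 4 barcode sequences, none of them a member. A doublet caller marked 1.31% and 1.57% of passing barcodes, 21 and 14 members among them, and these were kept because the rule names no such filter. Members with Xist, the RNA of the inactive X chromosome, and no Y-linked UMI were 93 (19.3%) and 173 (37.9%), and those with Y-linked UMIs and no Xist were 256 (53.1%) and 154 (33.8%). Edar had 1 UMI in the members of each library, too few to compare, against 6.46 and 3.71 CPM (UMIs per 1000000 of the summed UMIs) in the passing barcodes outside the C1q and receptor gate. These are called the other passing barcodes below, and they leave out the Gpnmb-high and osteoclast-side barcodes. The ectodysplasin pathway is therefore described below only through genes shared with other receptors.

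Members were 3.59% (exact Clopper-Pearson 95% interval 3.28 to 3.92) of passing control barcodes and 2.94% (2.68 to 3.22) of passing deletion barcodes. The difference was -0.644 percentage points, with a span of -1.23 to -0.0576 between opposite ends of the intervals. These intervals, like all below, cover counting error only. Of the 553 and 502 barcodes that passed the C1q and receptor thresholds, 66 and 43 were Gpnmb-high and 5 and 3 reached the osteoclast threshold. The Gpnmb-high share of that gate was 11.9% (9.35 to 14.9) and 8.57% (6.27 to 11.4), so its intervals overlap. Another 16 and 15 barcodes had enough C1q and too few receptor UMIs.

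**Figure D1:**
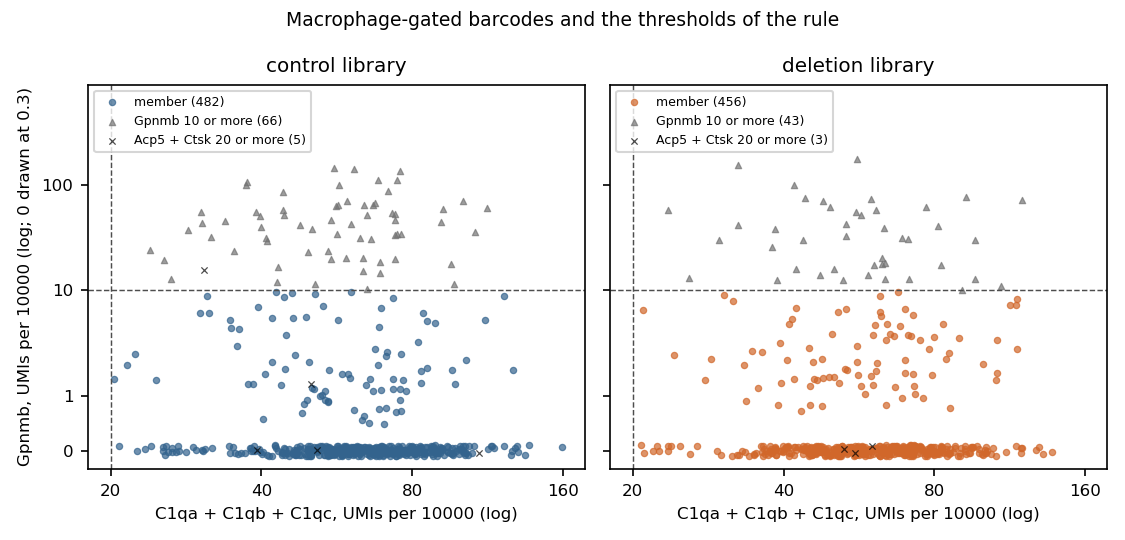
Summed C1q UMIs (horizontal) against Gpnmb UMIs (vertical), both per 10000 on log axes with 0 drawn at 0.3 and small vertical offsets at 0, for each barcode of the C1q and receptor gate, by library. Dashed lines are the thresholds of 20 and 10. Most of the 482 and 456 members lie at 0 Gpnmb. Barcodes lie on both sides of the Gpnmb threshold without a clear gap, 21 and 16 at 5 to 10 and 6 and 10 at 10 to 15 per 10000.

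The thresholds were not equally well separated from the rest of the data. Just below the Gpnmb threshold, at 5 to 10 per 10000, stood 21 and 16 members, and just above it, at 10 to 15, stood 6 and 10 barcodes. Members at 5 to 10 had 5380 and 2246 CPM of Hmox1, the gene of haem oxygenase, and barcodes at 10 to 15 had 5393 and 8512 CPM. The 461 and 440 members under 5 had 868 and 554 CPM. Mrc1 had the opposite order, with 1652 and 1687 CPM under 5, 752 and 1097 CPM at 5 to 10, and 590 and 480 CPM at 10 to 15. The C1q threshold cut a thin tail: 10 and 17 barcodes lay at 10 to 20 per 10000, 50 and 60 members at 20 to 40, and 331 and 321 at 40 to 80.

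Checked against their markers, the members carried macrophage genes that the rule did not use. The 5 given markers, of which the rule used all but Pf4, summed to 9902 and 9485 CPM, against 17.2 and 22.2 CPM in the other passing barcodes. C1qa had 883 and 981 CPM, C1qb 1895 and 1648, and C1qc 3528 and 3358, values that the rule itself sets. Pf4, which the rule did not use, had 1986 and 1834 CPM and was found in 94.6% and 93.2% of members. After each barcode was thinned to 2000 UMIs, which left out 27 and 28 members, Pf4 had a UMI in 85.9% and 84.6% of members. The same measure was 4.35% and 3.98% in an endothelial gate and 0.311% and 0.348% in a mesenchymal gate of these libraries, cells that should lack Pf4. Mrc1, one of the receptor genes of the rule and so no check, had 1610 and 1664 CPM and, after thinning, a UMI in 87.5% and 87.2% of members. Outside the rule, Fcer1g and Tyrobp, adaptors of Fc and related receptors, had 2860 and 2644 CPM (Fcer1g) and 1132 and 932 CPM (Tyrobp), and Cd68, a lysosomal macrophage marker, had 554 and 527 CPM.

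Markers of other cell types were low but not all absent. Mesenchyme markers (9 genes led by Col1a1 and Col1a2) summed to 1815 and 1627 CPM, against 55379 and 36959 CPM in the other passing barcodes. Monocyte markers summed to 156 and 221 CPM, mostly Fn1, while Chil3, a defining monocyte gene, had 0 and 0.344 CPM. Neutrophil markers summed to 35.8 and 21.0 CPM, with Ly6g and Elane at 0 in both libraries. Osteoclast markers summed to 60.9 and 71.3 CPM with Calcr at 0, dendritic cell markers to 17.9 and 16.9 CPM with Cd209a and Clec9a at 0, and mast cell markers to 2.87 and 5.51 CPM. Lymphoid markers summed to 23.6 and 22.7 CPM with Cd3e, Cd3g and Trbc2 at 0. Erythroid markers summed to 460 and 43.0 CPM, all but a little of it haemoglobin, and are taken up again below.

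The label calls these cells resident. Lyve1, Cd163, Folr2 and Timd4, often used to mark resident subsets, were each found in a minority of thinned members. These subset genes were singled out after their values were seen. The list of 20 resident programme genes to which they belong summed to 8765 and 8482 CPM, against 614 and 801 CPM in the other passing barcodes. Its strongest genes, Selenop, Stab1, Maf and F13a1, are given below. At 2000 UMIs, Lyve1, a hyaluronan receptor of perivascular macrophages, had a UMI in 15.6% and 14.7% of members, against 0.81% and 1.37% in the endothelial gate. Cd163, the receptor for haemoglobin bound to haptoglobin, was found in 9.89% and 12.9% and Folr2, a folate receptor, in 8.79% and 11.2%. Neither was found in the 988 and 803 thinned endothelial barcodes, which allows shares of up to 0.304% and 0.374%. Timd4, a receptor for phosphatidylserine on dying cells, was found in 2.20% and 1.17%, and likewise in none of the endothelial barcodes. Cx3cr1, the receptor of the chemokine CX3CL1, was more widespread at 65.5% and 57.0%, with 2.73% and 2.74% in the endothelial gate. Ccr2, the receptor that brings monocytes into tissue, was found in 2.42% and 4.67%, and H2-Aa, an MHC class II chain, in 1.10% and 0.234%. Whether the cells arose before birth or from incoming monocytes was not measured. They are therefore called C1q macrophages below.

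Cd163 and Folr2 had higher shares among members with Lyve1 than among those without it, although most members with Lyve1 lacked Cd163 and most lacked Folr2. Of control members with Lyve1 at 2000 UMIs, 23.9% also had Cd163, against 7.29% of those without Lyve1. In the deletion library the same shares were 22.2% and 11.2%. For Folr2 they were 31.0% against 4.69% in the control and 25.4% against 8.77% in the deletion library. Il1b, the gene of interleukin-1 beta, showed no such excess, at 19.7% against 22.9% and 9.52% against 18.9%. These shares describe barcodes of the same 2 libraries and carry no test.

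Clustering of the 938 members by variable genes gave 8 sub-clusters, described by their leading genes and not named, and these genes are no test of the sub-clusters they define. Genes of mitochondria, ribosomal proteins, haemoglobins and the sex chromosomes stayed out of the clustering. The largest, with 244 barcodes, had Ppbp, Hspa1b, Lyve1 and Hspa1a among its leading genes. They were found in 10.7%, 24.6%, 42.6% and 43.4% of its barcodes, in that order, so Ppbp was in few of them. Its resident programme list summed to 12577 CPM. Close to it were the sub-clusters of 78 and 43 barcodes described below, at 12312 and 12220 CPM. The remaining sub-clusters had 6197 to 7362 CPM. The next largest, with 224 barcodes, was led by Thbs1, Rab11fip1, Il1b, Ndrg1 and Sirpb1c. In it the inflammatory and NF-kB feedback list summed to 15085 CPM, against 10908 CPM in the other members together. The sub-clusters of 78 and 182 barcodes described below had 13900 and 12171 CPM. A sub-cluster of 182 barcodes was led by mitotic genes, namely Prc1, Ccnb1, Ccna2, Hmmr and Prr11, and a sub-cluster of 57 by the replication genes Ung, Cdc6, Hells, Clspn and Uhrf1. Another 78 barcodes were led by Dnase1l3, a secreted DNase, Cd74, the MHC class II invariant chain, Sema6d, Enpp4 and Calhm6. A group of 44 barcodes was led by Spp1, the osteopontin gene, Hmox1, Cspg4, Lpl and Lhfpl2, and its lipid handling list summed to 12143 CPM against 2808 to 4869 CPM in the other sub-clusters. The 66 barcodes led by Igfbp5, Col3a1, Nid1, Ibsp and Postn held 14612 CPM of mesenchyme markers, against 455 to 1041 CPM elsewhere, and 24 of the members that the doublet caller marked. The last 43 barcodes, led by AW112010 and Zfp791, were shallow, with a median of 2264 UMIs. They also had low levels of 3 lists. Immediate early genes summed to 2637 CPM against 16736 CPM in the other members. The inflammatory and NF-kB feedback list summed to 1371 against 12023 CPM, and chemokines to 4038 against 17004 CPM.

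**Figure D2:**
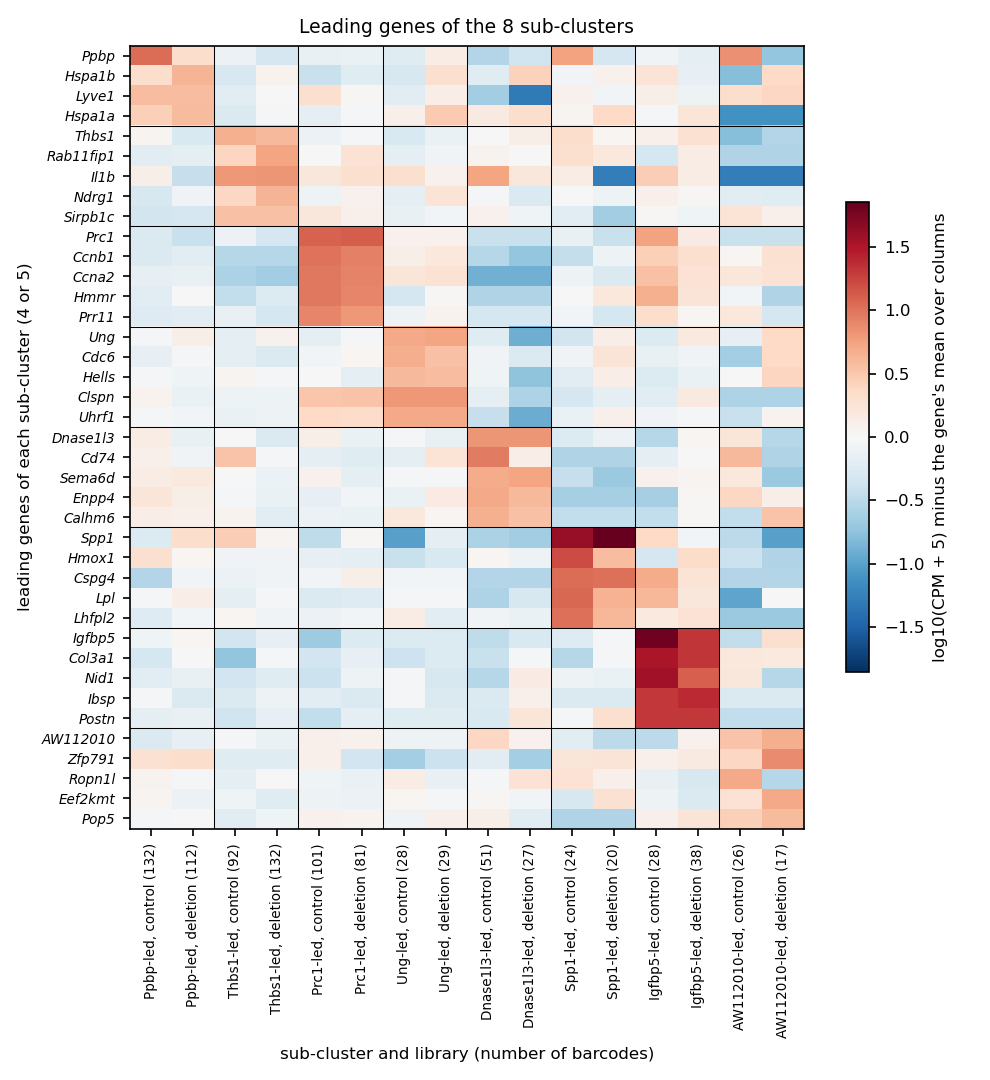
Levels of 4 (Ppbp-led) or 5 (others) leading genes of each of the 8 sub-clusters (rows) in each sub-cluster and library (columns, with the number of barcodes), as log10(CPM + 5) minus the gene's mean over columns. Most leading genes are high in both columns of their own sub-cluster, and Hmox1 is higher in the 24 control than in the 20 deletion barcodes of the Spp1-led one.

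Sub-cluster sizes were compared between the libraries only where none of the 10 leading genes differed between them. The mitotic sub-cluster held 21.0% (17.4 to 24.9) and 17.8% (14.4 to 21.6) of members, the replication sub-cluster 5.81% (3.89 to 8.29) and 6.36% (4.30 to 9.01), and the shallow one 5.39% (3.55 to 7.80) and 3.73% (2.19 to 5.90). The intervals of each of these 3 pairs overlap. The other 5 sub-clusters had 1 to 5 leading genes that differed between the libraries, and their sizes were not compared.

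Many of the C1q macrophages carried cell cycle transcripts. At 2000 UMIs, at least 2 UMIs of 20 genes of the G2 and M phases were found in 34.1% (29.7 to 38.6) of control and 35.5% (31.0 to 40.3) of deletion members, against 20.8% and 26.0% in the endothelial gate. Without thinning, the shares were 61.6% and 51.8%, beside the median depths of 8645 and 6182 UMIs. For 20 genes of the S phase, the thinned shares were 56.7% (52.0 to 61.3) and 54.4% (49.6 to 59.2), and 30.4% and 36.4% in the endothelial gate. Top2a, the mitotic topoisomerase, was found in 14.9% and 17.5% of thinned members, against 8.10% and 10.5% in the endothelial gate. The thinned G2 and M shares, and likewise the thinned S phase shares, lay within each other's intervals, whereas the unthinned G2 and M intervals, 57.1 to 66.0 and 47.1 to 56.4, did not overlap.

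The level of the G2 and M genes was lower in the deletion library although these shares were alike. The list's median log2 ratio was -0.32. This and every other ratio is of (CPM + 5) in the deletion library to (CPM + 5) in the control, a scale that understates differences of weak genes. Of its 20 genes 17 lay below 0, and for 13 the 95% interval of the ratio of counts (conditional binomial) lay under 1. The same median over all 9907 genes with at least 5 CPM was -0.01, with 48.4% above 0. Of these 9907 genes, the ratio interval lay above 1 for 948 and below 1 for 880. The interval is narrower for genes with more UMIs, so lists of strong genes exclude 1 more easily. Birc5, the survivin gene, had 203 and 155 CPM, Ube2c, a mitotic ubiquitin enzyme, 176 and 137 CPM, and Cdk1, the mitotic kinase, 210 and 187 CPM, while Mki67, a gene of dividing cells, had 149 and 162 CPM. No gene of this list passed 1.5-fold. Outside the list, Cenpa and Ncapd2, which also act in mitosis, were lower past 1.5-fold. Cenpa had 219 and 140 CPM and Ncapd2 61.2 and 37.5 CPM. For the S phase genes the median was 0.09, with 15 of 20 above 0, and Pcna, the replication clamp, had 351 and 361 CPM.

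Between the libraries, the C1q macrophages differed in few genes. A gene was called when it reached 50 CPM in a library, differed at least 2-fold and had a ratio interval that excluded 1. By this rule of size 2 of 3474 genes were higher in the deletion library (0.0576%) and 5 were lower (0.144%). At 1.5-fold, 27 were higher (0.777%) and 20 lower (0.576%). Of these, 20 of the 27 and 14 of the 20 also passed 1.5-fold both without each gene's 3 highest barcodes per library and with every barcode weighted equally. The other passing barcodes lay on the same side for 22 of the 27, 5 of them past 1.5-fold, and for 11 of the 20, of which 0 passed 1.5-fold.

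**Figure D3:**
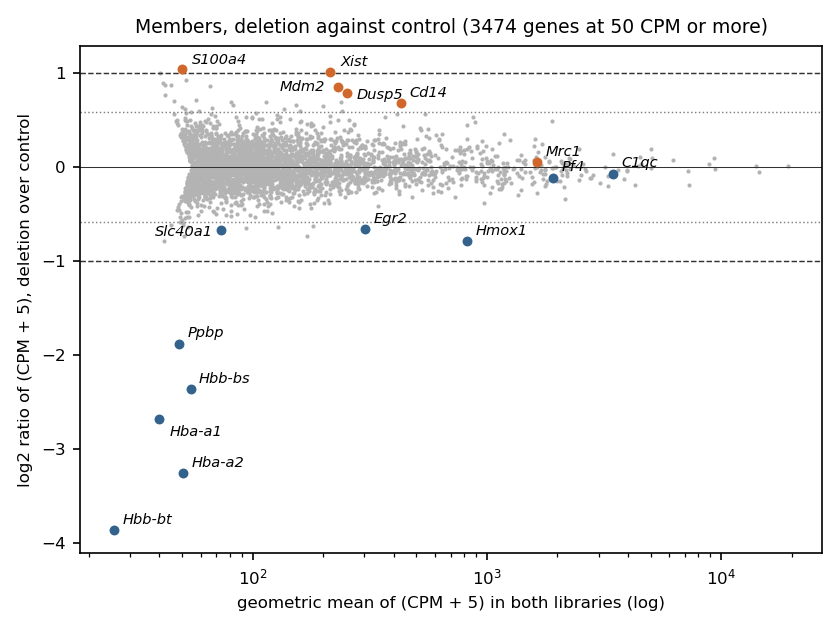
Log2 ratio of (CPM + 5), deletion over control, against the geometric mean level on a log axis, for 3474 genes at 50 CPM or more in the members. Dashed lines mark 2-fold and dotted lines 1.5-fold. The 5 genes below the lower dashed line are 4 haemoglobin genes and Ppbp, and the 3 labelled markers C1qc, Pf4 and Mrc1 lie close to 0.

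The genes called higher were S100a4 and Xist. S100a4, which encodes a calcium-binding protein of motile cells and lies on chromosome 3 from 90603771 to 90606045, had 29.6 CPM (24.6 to 35.3) in the control and 66.4 CPM (57.4 to 76.5) in the deletion library, a log2 ratio of 1.05. It was found in 61 and 75 members, and its 3 highest barcodes gave 19 of 124 control and 43 of 193 deletion UMIs. Without them the log2 ratio was 0.91. After thinning it had a UMI in 7.47% and 8.41% of members. The share was 2.13% and 2.24% in the endothelial gate and 6.69% and 7.75% in the mesenchymal gate, so the members' share was close to that of mesenchymal barcodes. The level was higher in the deletion library in 7 of the 8 sub-clusters, and the other, led by Dnase1l3, had 0 in both. The other passing barcodes had 45.6 and 67.0 CPM. Xist, on the X chromosome, had 146 and 297 CPM, a log2 ratio of 1.01, beside the shares of members with Xist given above. Among members with Xist and no Y-linked UMI it had 624 and 680 CPM. Vcan, the gene of the matrix proteoglycan versican, was just short of the call at 23.4 and 51.6 CPM, with 605 and 1179 CPM in the other passing barcodes.

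The 5 genes called lower had much of their control UMIs in 1 to 3 barcodes. The alpha haemoglobin gene Hba-a2 had 634 and 33 UMIs in the members, of which 1 control barcode gave 528 and 1 deletion barcode 25. Hba-a1 had 401 and 31 UMIs, 350 of the former in 1 barcode, and the beta genes Hbb-bs and Hbb-bt had 496 and 55 and 389 and 5 UMIs, with 473 and 371 in 1 control barcode. Their log2 ratios ran from -3.87 to -2.37, and from -1.13 to -0.18 without the 3 highest barcodes per library. The other erythroid markers were near 0, with Alas2, the first enzyme of haem synthesis in red cells, at 7 and 1 UMIs. The protocol lysed red cells before capture. Ppbp had 369 and 59 UMIs, a log2 ratio of -1.88, in similar numbers of members, 41 and 37. Its 3 highest control barcodes held 226 of the 369 UMIs and its 3 highest deletion barcodes 19 of the 59, and without them the ratio was -1.06. Markers of platelets and their precursors, singled out after their values were seen, were near 0, with Gp9 at 0 and 0, Gp1bb at 1 and 1, Itga2b at 4 and 3 and Tubb1 at 29 and 12 UMIs. Pf4, whose window is shown beside that of Ppbp, had a log2 ratio of -0.11. After each gene's 3 highest barcodes per library were left out, 1 gene was called higher and 0 lower. Hba-a2 and Ppbp, at -1.13 and -1.06, were then still past 2-fold but under the minimum of 50 CPM in both libraries. The 0 therefore does not mean that their differences were gone.

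**Figure D4:**
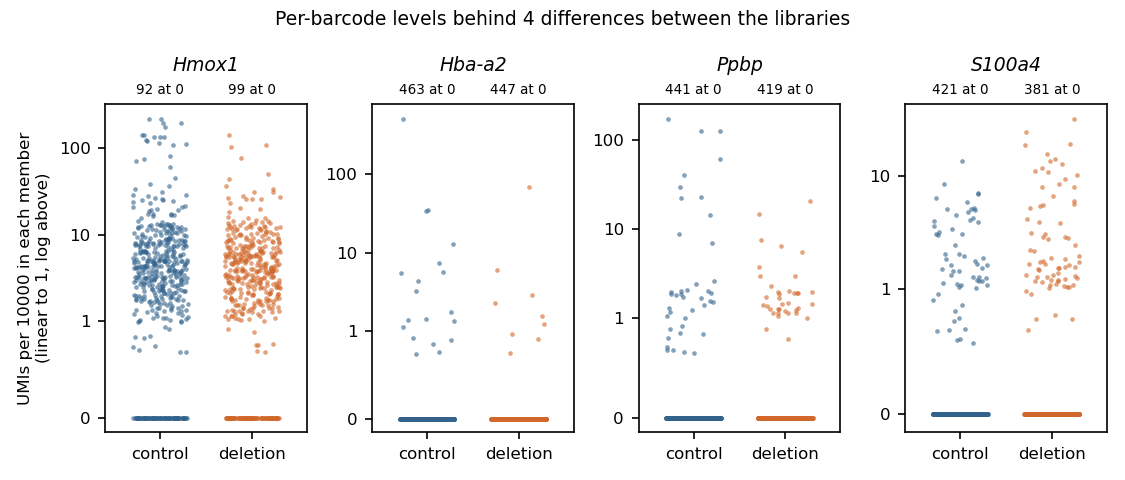
UMIs per 10000 of Hmox1, Hba-a2, Ppbp and S100a4 in each member (points, spread sideways) of the 482 control and 456 deletion barcodes, on an axis that is linear to 1 and logarithmic above, with the number at 0 printed above each column. For Hba-a2 1 control barcode stands far above the rest, and a band of 19 control and 5 deletion barcodes lies above 50 per 10000 for Hmox1.

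Genes that handle haem and iron were lower in the deletion library as a list. Their median log2 ratio was -0.20, and 10 of 12 measured genes lay below 0, 3 of them past 1.5-fold. Hmox1, which lies on chromosome 8 from 75093621 to 75100589 and encodes the enzyme that breaks haem open, had 1077 CPM (1046 to 1109) in the control and 622 CPM (593 to 651) in the deletion library, a log2 ratio of -0.79. The typical member differed far less, with medians of 3.63 and 3.21 UMIs per 10000, and 390 and 357 members had a UMI. At 2000 UMIs, 52.8% and 52.6% of members had it, against 6.07% and 8.59% in the endothelial gate. The difference sat in the barcodes with much Hmox1. At least 50 per 10000 was reached by 19 control and 5 deletion members. The Spp1-led sub-cluster held 2128 (47.2%) of the control and 269 (14.9%) of the deletion UMIs, at 9309 and 2137 CPM, in 24 and 20 barcodes. Without that sub-cluster, a comparison added once the data had been seen, Hmox1 had 602 and 553 CPM. The barcodes at 50 or more were not in the same sub-clusters in both libraries. Of the 19 control members 15 were in the Spp1-led and 4 in the Ppbp-led sub-cluster. Of the 5 deletion members 3 were in the Igfbp5-led, 1 in the Spp1-led and 1 in the Ppbp-led sub-cluster, so leaving out the Spp1-led one took high barcodes mostly from the control. Hmox1 had 1141 and 628 CPM in the Ppbp-led and 276 and 1274 CPM in the Igfbp5-led sub-cluster. The Spp1-led barcodes also carried Gpnmb, at 411 and 230 CPM, against 57.3 and 62.0 CPM over all members, and so lay nearer to the threshold of the rule.

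Of the iron transporter genes, Slc40a1 and Slc11a1 were lower across many barcodes, while Slc11a2 was not. Slc40a1, on chromosome 1 from 45908068 to 45926523, encodes ferroportin, the exporter that releases iron from macrophages. It had 87.9 CPM (79.2 to 97.4) and 53.4 CPM (45.3 to 62.5), a log2 ratio of -0.67, in 167 and 89 members. At 2000 UMIs it was found in 12.97% and 8.41% of members and in 4.05% and 2.74% of the endothelial gate, and it was lower in 6 of the 8 sub-clusters. Its 3 highest barcodes gave 8.15% and 10.97% of its UMIs, and without them the ratio was -0.71. Slc11a1, which moves iron and other metals out of the phagosome, had 56.9 and 35.8 CPM, a log2 ratio of -0.60, and was also lower in 6 of 8 sub-clusters. Without thinning it was found in 154 and 84 members, counts that also depend on the median depths of 8645 and 6182 UMIs. In the other passing barcodes Slc40a1 had the opposite order, at 8.83 and 11.5 CPM, and Slc11a1 had 1.80 and 1.16 CPM. Slc40a1 and Slc11a1 were both lower in members with Xist, at 61.5 and 32.7 CPM and 57.2 and 30.2 CPM. In members with Y-linked UMIs the differences were smaller, at 92.8 and 71.2 CPM (Slc40a1) and 53.0 and 46.8 CPM (Slc11a1). These members held 2435958 and 1025356 UMIs, and the values are given without intervals. Whether the small difference of Slc11a1 there exceeds counting error was not tested. The ferritin genes Fth1 and Ftl1, which store iron, had 7817 and 6826 CPM (Fth1) and 4578 and 3996 CPM (Ftl1), log2 ratios of -0.20 each. Per-barcode medians of Fth1 were 59.9 and 60.9 per 10000. Blvrb, a biliverdin reductase, had 111 and 101 CPM. Slc11a2, the divalent metal transporter, lay on the other side at 45.4 and 65.1 CPM.

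Cytokines and feedback genes of the NF-kB pathway, the signalling route of many inflammatory receptors, were slightly higher in the deletion library as a list. Their median log2 ratio was 0.13, 16 of 19 measured genes lay above 0, and the ratio interval was above 1 for 12 and below 1 for 0. Over all 9907 genes it was above 1 for 948 and below 1 for 880. None passed 1.5-fold at the level of the rule. Zfp36, which destabilises cytokine mRNA, had 3299 and 3635 CPM, Ier3, an early response gene, 1334 and 1456 CPM, Nlrp3, an inflammasome sensor, 1051 and 1140 CPM, and Nfkbia, the inhibitor IkB alpha, 1003 and 1030 CPM. The list's summed level also differed in the other passing barcodes, at 1594 and 2299 CPM, so the direction was shared with cells of other kinds. Beyond the genes named by rule, Cebpb, a transcription factor gene of macrophages, had 720 and 1039 CPM and was higher in 8 of 8 sub-clusters. Ptgs2, the inducible cyclooxygenase gene, had 334 and 496 CPM, and Il1b lay on the other side at 268 and 246 CPM. Cd14, the co-receptor for bacterial lipopolysaccharide and also named after its values were seen, was past 1.5-fold at 337 CPM (319 to 355) and 542 CPM (515 to 569), a log2 ratio of 0.68. It was found in 321 and 318 members, its per-barcode medians were 1.68 and 2.89 per 10000, and it was higher in 7 of 8 sub-clusters.

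Dusp5 and Mdm2 were also higher in most sub-clusters. Mdm2, the ubiquitin ligase of p53, had 167 CPM (155 to 180) and 305 CPM (286 to 326), a log2 ratio of 0.85, in 288 and 304 members, and was higher in 8 of 8 sub-clusters. At 2000 UMIs it was found in 26.1% and 35.7% of members, against 13.2% and 13.8% in the endothelial gate. Dusp5, a phosphatase of the kinase ERK, had 187 CPM (174 to 200) and 326 CPM (305 to 347), a log2 ratio of 0.79, and was higher in 7 of 8 sub-clusters. It was found in 26.6% and 39.0% of thinned members, against 8.81% and 12.3% in the endothelial gate. Dusp5 also had 27.6 and 48.7 CPM in the other passing barcodes, a log2 ratio of 0.72, and 127 and 240 CPM in Gpnmb-high barcodes, so the direction was shared. Mdm2 had 55.0 and 67.9 CPM in the other passing barcodes, a log2 ratio of 0.28. The remaining genes of the rule on the higher side were weaker. Fam129b had 32.7 and 66.8 CPM, Fbn2 25.3 and 51.3, Gem 26.3 and 52.3, Sirt1 28.2 and 55.8, and Ndrg1 43.7 and 83.3 CPM. Fbn2, the fibrillin 2 gene, had 735 and 943 CPM in the other passing barcodes, where Gem had 40.3 and 75.5 and Sirt1 30.7 and 51.5 CPM. Fam129b had 38.9 and 37.9 CPM and Ndrg1 106 and 88.9 CPM there.

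On the lower side, the genes past 1.5-fold beside haemoglobins, Ppbp, Hmox1 and Slc40a1 were of mixed kinds. Slc11a1, Cenpa and Ncapd2 are given above and Egr2 below. Hes1 had 112.5 and 69.9 CPM, Dusp6 154.8 and 97.4, and Il1r2 50.4 and 31.0 CPM. Nhlrc3 had 57.8 and 35.8 CPM and Tmem104 55.2 and 35.1 CPM. Zfp217, a zinc finger gene, had 90.5 and 54.0 CPM and was lower in 7 of 8 sub-clusters. Without thinning it was found in 222 and 112 members, counts that also depend on the median depths of 8645 and 6182 UMIs. Dennd5b had 60.7 and 34.4 CPM. Col4a1, a basement membrane collagen, and Igfbp5, a binding protein of insulin-like growth factors, had 50.2 and 26.9 CPM (Col4a1) and 216 and 128 CPM (Igfbp5). The 3 highest barcodes gave 44.8% and 35.9% of the Col4a1 UMIs and 44.4% and 53.1% of those of Igfbp5. The lower level of Igfbp5 sat in the Igfbp5-led sub-cluster, at 2917 and 967 CPM. Elsewhere the order was mostly the opposite, since Igfbp5 was higher in the deletion library in 6 of 8 sub-clusters and was found in 65 and 84 members. Its log2 ratio of -0.74 turned to 0.62 without that sub-cluster, to 1.28 without the 10% of members highest in other cells' markers and to 2.60 in members with Xist and no Y-linked UMI. In the other passing barcodes Col4a1 and Igfbp5 had 750 and 654 CPM and 2260 and 3338 CPM.

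Immediate early genes, which dissociation and many stimuli induce, split into both directions. Their median was 0.08, with 12 of 23 above 0, 10 ratio intervals above 1 and 10 below. Over all 9907 genes 948 intervals lay above 1 and 880 below. Klf6 had 2305 and 2621 CPM and Zfp36 is given above, while Fos had 2423 and 1916 CPM and Fosb 1229 and 1080 CPM. Fos and Fosb were higher in the other passing barcodes of the deletion library, at 1785 and 2386 CPM and 885 and 1479 CPM, so members and the rest lay on opposite sides. Egr2, a transcription factor gene named after its values were seen, was past 1.5-fold at 376 CPM (357 to 395) and 236 CPM (219 to 254), a log2 ratio of -0.66. It was found in 39.1% and 29.0% of thinned members and was lower in 6 of 8 sub-clusters, and the other passing barcodes had 81.7 and 107 CPM. Heat shock and metallothionein genes had a median of 0.07 with 12 of 15 above 0. Hspa5, the chaperone of the endoplasmic reticulum, had 1598 and 2246 CPM, Hsp90ab1 1802 and 1877, Hspa8 1337 and 1404 and Hsp90aa1 838 and 978 CPM.

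Chemokines gave no common direction. Their median log2 ratio was -0.07, 7 of 16 measured genes lay above 0, and the summed level was 16449 and 17209 CPM. Cxcl2, which attracts neutrophils, had 4710 and 5382 CPM. Ccl2, which attracts monocytes, had 2535 and 2588 CPM, and Ccl4 1810 and 1651 CPM. Cxcl10, a chemokine induced by interferon, had 746 and 1039 CPM, while the other passing barcodes had 15.6 and 48.1 CPM. The interferon response list it also belongs to had a median of -0.04 with 8 of 16 above 0. Its other leading members were Irf1 at 207 and 173 CPM, Ifi27l2a at 181 and 184 and Ifi204 at 169 and 173 CPM. Among chemokine receptors, 5 of 7 lay above 0 with a median of 0.08. Cx3cr1 had 680 and 593 CPM, Ccr1 177 and 198 and Cxcr4 138 and 143 CPM, and Ccr2, under the level of the rule, had 10.0 and 25.1 CPM.

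**Figure D5:**
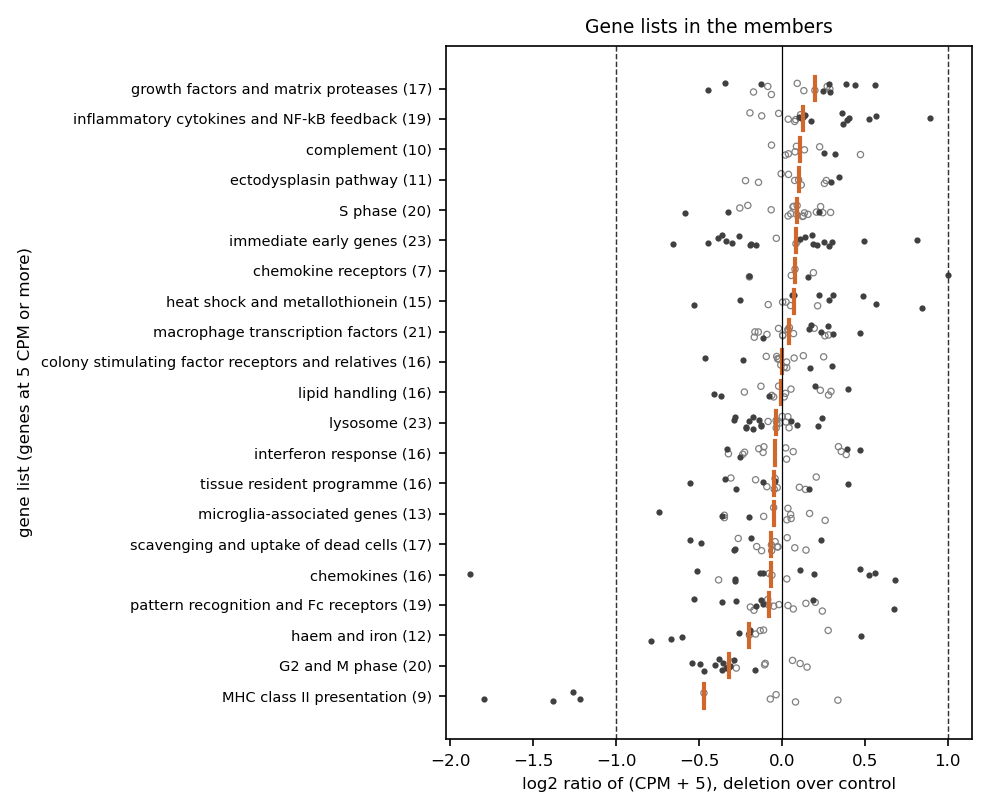
Log2 ratios of (CPM + 5), deletion over control, of the members of 21 gene lists with at least 5 CPM in either library (points, with the number of genes in brackets). Filled points have a ratio interval that excludes 1, thick bars are list medians and dashed lines mark 2-fold. List medians run from -0.47 for MHC class II presentation to 0.20 for growth factors and matrix proteases.

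Lists of the macrophage's housekeeping work had medians close to that of all genes. The resident programme list had a median of -0.04, with Selenop, a selenium carrier, at 4038 and 3918 CPM, Stab1, a scavenger receptor, at 1201 and 1167, Maf, a macrophage transcription factor, at 994 and 918 and F13a1, a coagulation factor subunit, at 951 and 921 CPM. Scavenging and uptake genes had a median of -0.06 with 4 of 17 above 0. Of these, Rac1, which drives engulfment, had 933 and 893 CPM, Msr1 390 and 412 and Cd36 230 and 201 CPM. Lysosome genes summed to 25193 and 24527 CPM with a median of -0.03. Among them were the protease genes Ctsb at 4913 and 5242 CPM, Ctss at 2299 and 1980 and Lgmn at 2059 and 2122 CPM, and Psap, the precursor of sphingolipid activators, at 3504 and 3051 CPM. Lipid handling genes had a median of -0.003, with Apoe at 1769 and 1679 CPM, Lgals3 at 498 and 572, Abca1 at 443 and 450 and Fabp5 at 351 and 346 CPM. None of the genes named in these 4 lists passed 1.5-fold.

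Complement genes other than C1q had a median of 0.11, with 9 of 10 above 0 and 2 ratio intervals above 1 (948 over all 9907 genes). The receptors for the complement fragments C5a and C3a, encoded by C5ar1 and C3ar1, had 425 and 452 CPM (C5ar1) and 414 and 438 CPM (C3ar1). Itgam, a chain of complement receptor 3, had 166 and 209 CPM, and Cfp, the gene of properdin, 140 and 144 CPM. Pattern recognition and Fc receptors had a median of -0.08 with 7 of 19 above 0, Cd14 being the only gene of the list past 1.5-fold. Fcgr3 had 751 and 672 CPM and Fcgr2b 524 and 480 CPM. Receptors for colony stimulating factors and related cytokines had a median of 0.003 with 8 of 16 above 0. Csf1r, which the rule used, had 1243 and 1056 CPM, Csf2rb 369 and 345, Il6ra 265 and 261 and Tgfbr1 204 and 231 CPM.

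Macrophage transcription factors had a median of 0.05 with 15 of 21 above 0, and included Id2 at 696 and 786 CPM and Zeb2 at 400 and 486 CPM. Growth factors and matrix proteases, through which macrophages act on neighbouring tissue, had a median of 0.20 with 11 of 17 above 0. Osm, the oncostatin M gene, had 246 and 301 CPM, Timp2, a metalloprotease inhibitor, 293 and 348, Adam17, a sheddase of TNF, 195 and 208 and Grn, the progranulin gene, 1192 and 1092 CPM. Genes associated with microglia, the macrophages of the brain, were also present, with a median of -0.05. Fcrls had 787 and 816 CPM and Trem2 306 and 296 CPM.

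MHC class II presentation had the lowest list median, -0.47, with 2 of 9 above 0, and it rested on weak genes in few barcodes. Cd74 had 33.9 and 11.7 CPM in 52 and 29 members, and its 3 highest barcodes gave 41.5% and 20.6% of its UMIs. H2-Aa had 20.8 and 2.41 CPM in 6 and 5 members, with 86.2% and 71.4% of its UMIs in the 3 highest. Without the 3 highest barcodes per gene and library the list median was -0.13. The costimulatory gene Cd86 had 282 and 298 CPM, H2-DMa 53.0 and 51.6 and Cd80 27.7 and 26.2 CPM.

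The genes of the ectodysplasin pathway that were measurable here are shared with other receptors. Of 11 measured genes 8 lay above 0, with a median of 0.10. Tab2, an adaptor of the kinase TAK1, had 242 and 249 CPM, the NF-kB subunits Rela and Relb 73.8 and 78.1 CPM and 56.6 and 70.6 CPM, and the kinase Ikbkb 50.4 and 55.1 CPM. Eda, the ligand gene, had 1.19 and 1.38 CPM. Among sex-linked genes Xist was called, and of the Y-linked genes Ddx3y had 90.3 and 63.7 CPM, beside the shares of members with Y-linked UMIs given above.

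Set beside the Gpnmb-high barcodes of the same gate, the C1q macrophages had lower levels of many lipid handling and some lysosome and iron genes. The rule used this contrast, so the values are a description. Of 3358 genes at 50 CPM in both libraries' contrasts, 136 (4.05%) were at least 2-fold higher and 117 (3.48%) at least 2-fold lower in the members of both libraries. Spp1 had 156 and 207 CPM in members and 5466 and 6884 CPM in Gpnmb-high barcodes, and the fatty acid binding protein gene Fabp5 351 and 346 CPM against 5152 and 4846 CPM. Hmox1 had 1077 and 622 CPM against 11491 and 9441 CPM. Cd9, a tetraspanin gene, had 90.3 and 94.0 CPM against 1013 and 730 CPM, and Atp6v0d2, a proton pump subunit, 5.73 and 6.54 CPM against 118 and 87.6 CPM. The other genes of the 10 lowest were Gpnmb itself, Mgst1, Rnf128, Lhfpl2 and Fabp4. By list, 9 of 12 lipid handling genes, 8 of 23 lysosome genes and 5 of 10 haem and iron genes were lower in members in both libraries, while 2 of the haem and iron genes were higher.

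Of the resident programme 4 of 12 genes were higher and 1 lower in members in both libraries, and of the scavenging and uptake list 0 of 14 were higher and 2 lower. Cd163 had 96.3 and 85.7 CPM in members and 3 and 0 UMIs in all Gpnmb-high barcodes of the respective library. Lyve1 had 183 and 151 CPM against 6.95 and 55.2 CPM, the prostaglandin synthase gene Ptgs1 108 and 89.2 CPM against 12.7 and 9.74 CPM, and Egr2 376 and 236 CPM against 40.5 and 51.9 CPM. Tspan13, Gbp7, Plscr1, Smagp, H19 and Ccn1 made up the 10 highest. Of the measured chemokines 7 of 12 were higher in members in both libraries, with summed levels of 16449 and 17209 CPM against 5785 and 8127 CPM. Of interferon response genes 4 of 5, of S phase genes 5 of 9 and of G2 and M genes 4 of 11 were higher. Gpnmb-high barcodes had median depths of 13009.5 and 6786 UMIs, so the control contrast set members against deeper barcodes.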

How the data were processed

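Molar germs were digested with collagenases, dispase and DNase, strained, cleared of red and dead cells and captured on BD Rhapsody, per the labels' protocols. The authors deposited counts of UMIs per gene and barcode, 1 matrix per library, made with STARsolo on mm10 per the submitters' processing notes. Software versions, gene models and barcode filter were not given in the sources used here. Both matrices listed 31253 genes, of which 31184 had a position in GENCODE M21.

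The members were selected on measured values, and members and gene lists were chosen with earlier results of these data known. UMIs were summed over members per library and divided to CPM. The conditional binomial interval took the library's summed UMIs as its total, and neither intervals nor limits cover more than counting error. List medians used genes with at least 5 CPM in either library. The endothelial gate had at least 4 UMIs of Pecam1, Cdh5, Kdr and Emcn together and the mesenchymal gate at least 100 UMIs per 10000 of Col1a1, Col1a2 and Col3a1, both without Ptprc or Csf1r. A 0 allowed up to 3 counts. Sub-clusters came from the Leiden method on 2000 variable genes, 20 components and 15 neighbours at resolution 0.5. Doublets were marked with Scrublet.

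The genes named were those called, filled up to 10 a direction with genes past 1.5-fold, the called genes and the 4 of highest mean level in each of 22 lists, the markers, Edar, and the 10 highest and lowest of the Gpnmb-high contrast. Others, among them Lyve1, Cd163, Folr2, Timd4, Ccr2, Cd14, Slc11a1, Egr2, Cebpb and Il1b, were named after their values were seen. Some genes that this rule names are not reported here. The code was tested on simulated data. Python 3.11.15, numpy 2.4.6, scipy 1.17.1, pandas 2.3.3, scanpy 1.11.5 and python-igraph 0.11.9 were used.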

Additional observations from a re-analysis of the deposited data

How the results depend on the processing

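The share of members stayed lower in the deletion library in all 12 alternatives that change it, by -0.840 to -0.502 percentage points. The counts of 2 genes called higher and 5 lower were small and moved more. Higher and lower counts were 8 and 8 after thinning to 2000 UMIs before the rule, 4 and 11 at a minimum of 20 CPM, 1 and 2 at 100 CPM, 10 and 21 with no minimum, 27 and 20 at 1.5-fold, and 1 and 0 without each gene's 3 highest barcodes per library. The higher count was 1 with Gpnmb under 20 per 10000 and without the 10% of members highest in other cells' markers, 4 with equal weight per barcode and with a pseudocount of 1 CPM, 0 with 20 CPM, and 18 in members with Xist and no Y-linked UMI. The lower count was 2 without doublet calls, 10 with equal weight per sub-cluster and 3 in members with Y-linked UMIs and no Xist. Hbb-bs turned to 1.25 (log2) without doublet calls. In members with Xist and no Y-linked UMI, Hba-a2 turned to 0.56, Hba-a1 to 1.80, Hbb-bs to 2.62 and Ppbp to 0.16. Of the single genes, Igfbp5 also took the other sign in 3 of 25 settings, at 1.28 without the members highest in other cells' markers, 2.60 in members with Xist and no Y-linked UMI and 0.62 without the Igfbp5-led sub-cluster. The cause was not tested. Dennd5b took the other sign in 1 of 25 settings, at 0.06. Of 550 list medians under the alternatives 5 moved, and of 500 single-gene ratios 64 moved and 5 reversed. Igfbp5 moved in 11 of 25 settings and Hmox1 in 10. Hmox1 ranged from -1.115 to -0.12 and took the other sign in 0. List medians close to 0 also took the other sign in some of 25 settings. This was so in 7 for lipid handling, 6 for colony stimulating factor receptors, 4 for chemokines, 3 for interferon response and fewer for some others. Of the alternatives, 23 were planned and 3 were chosen after seeing the data, namely those without the 3 highest barcodes, the Igfbp5-led or the Spp1-led sub-cluster.

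No paired analysis was possible because each group was 1 library, and no replicate was left out for the same reason. Genes under 50 CPM were not called.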
